A study of Homo sapiens with 4 samples.

Results

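The CTLH complex is a large ubiquitin ligase of human cells, followed here through 10 of its genes: RMND5A, RMND5B, MAEA, RANBP9, RANBP10, GID8, ARMC8, GID4, WDR26 and YPEL5. They were taken by gene name from a table of 58735 genes. The set was chosen by the counts of RMND5A, which was almost without reads in the shGOLM1 libraries, and the other 9 genes because they belong to the same complex. All 10 passed the filter on low counts, RMND5A through the control libraries, where it is high. The cells were SUP-M2, an established human line from a T cell lymphoma of the anaplastic large cell type, which carries an active ALK kinase. The shGOLM1 group held 2 libraries from cells labelled with short hairpin RNA against GOLM1, and the shscramble group held 2 libraries from cells with a scrambled hairpin. The sample titles name hairpins, whereas under genotype the shGOLM1 samples are entered as a knockout and the shscramble samples as a control. The labels give neither the hairpin sequences nor the time after their delivery, and do not say whether replicates were grown apart. The p-values therefore measure only a spread between these libraries that may be technical.

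CTLH is named after a sequence motif that several of its subunits share, and it is the human counterpart of the yeast GID ligase, which destroys enzymes of glucose synthesis when glucose returns. Its catalytic centre pairs MAEA with either RMND5A or RMND5B, which carry RING-type domains and act with the ubiquitin-conjugating enzyme UBE2H. RANBP9 or RANBP10, GID8 and ARMC8 build the scaffold, and GID4, WDR26 and YPEL5 bear on which proteins are reached. In blood-forming tissue the complex is best known from the maturation of red blood cells, in which MAEA and UBE2H take part.

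The libraries held 30889185 and 27544171 counts in shGOLM1 replicates 1 and 2, against 31972153 and 31608073 counts in shscramble. GOLM1 itself was at 69.6 and 69.5 CPM (counts scaled by depth to a common total, after TMM scaling of the libraries) in shGOLM1, against 212 and 213 CPM in shscramble (log2 fold change -1.61, SE 0.27). With all 4 libraries it did not pass in edgeR (unadjusted p = 0.00287, adjusted p = 0.42) and passed in DESeq2 (adjusted p = 0.0208), and each shGOLM1 library alone passed in edgeR (adjusted p of 6.56e-10 for replicate 1 and 3.38e-09 for replicate 2). The shGOLM1 libraries stood apart from each other. Mitochondrially encoded genes took 1.95% and 0.455% of the counts in shGOLM1 replicates 1 and 2, against 2.38% and 2.24% in shscramble, and ribosomal-protein genes took 7.55% and 16.3%, against 9.91% and 8.44%. All 6 markers of ALK-positive lymphoma that were checked had reads in every library, with a summed level of 3691 and 5728 CPM in shGOLM1, against 4514 and 4181 CPM in shscramble. TNFRSF8, which encodes the defining surface protein CD30, was at 539 and 88.4 CPM in shGOLM1, against 634 and 614 CPM in shscramble. NPM1 was the largest part of the sum in every library, at 1710 and 4705 CPM in shGOLM1, against 2944 and 2693 CPM in shscramble. The sum therefore says little about the other markers, and the members of that list lay on different sides of shscramble. In shGOLM1 replicate 2, TNFRSF8, GZMB and ALK were below both shscramble libraries, and NPM1, PRF1 and IL2RA were above them. PRF1, which encodes the pore-forming protein perforin, was at 621 and 145 CPM in shGOLM1, against 2.91 and 2.71 CPM in shscramble. It was the 1 of the 6 that DESeq2 called, while edgeR called 0. Over all 14166 tested genes, DESeq2 called 3.76% in either direction and edgeR 0%. GZMB, a protease of cytotoxic granules, was at 149 and 20.4 CPM in shGOLM1, against 118 and 86.3 CPM in shscramble, and ALK at 327 and 170 CPM, against 340 and 316 CPM. The part of these differences in the CTLH values was not tested. The summed level of 4 B cell, 4 myeloid, 4 epithelial and 4 fibroblast markers each stayed at or below 3.16 CPM in every library, with the B cell genes MS4A1 and CD79B at 0 counts throughout. In bulk RNA, fewer cells of a type and less RNA per cell cannot be told apart.

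Reference promoters are shown for the members on which the results turn, the paralogs RMND5A and RMND5B, their partner MAEA, and YPEL5. Each run is the stretch just before the first annotated exon on the plus strand, read from RefSeq promoters on GRCh38.p14, with CpG dinucleotides (the letters CG) in capitals. The stretches lie at chr2:86720041-86720172 for RMND5A, chr5:178130764-178130995 for RMND5B, chr4:1289641-1289850 for MAEA and chr2:30146757-30146940 for YPEL5.
RMND5A: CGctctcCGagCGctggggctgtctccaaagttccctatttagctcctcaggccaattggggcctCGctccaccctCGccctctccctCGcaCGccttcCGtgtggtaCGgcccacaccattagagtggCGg
RMND5B: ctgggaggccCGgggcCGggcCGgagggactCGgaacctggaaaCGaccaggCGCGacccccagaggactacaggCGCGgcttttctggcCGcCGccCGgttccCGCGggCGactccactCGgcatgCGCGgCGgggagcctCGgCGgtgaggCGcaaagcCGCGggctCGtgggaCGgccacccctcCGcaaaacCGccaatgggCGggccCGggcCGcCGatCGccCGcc
MAEA: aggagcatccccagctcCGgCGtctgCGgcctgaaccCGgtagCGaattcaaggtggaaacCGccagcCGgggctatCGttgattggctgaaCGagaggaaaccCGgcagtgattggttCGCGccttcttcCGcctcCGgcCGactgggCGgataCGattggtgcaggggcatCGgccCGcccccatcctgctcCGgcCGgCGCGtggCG
YPEL5: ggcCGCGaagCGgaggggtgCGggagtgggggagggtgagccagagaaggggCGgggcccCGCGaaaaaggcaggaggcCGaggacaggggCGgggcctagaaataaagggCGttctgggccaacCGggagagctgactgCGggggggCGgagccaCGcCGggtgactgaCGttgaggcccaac
Over the full RefSeq window of 300 bases, CG occurs 34 times at RMND5A, 45 times at RMND5B, 37 times at MAEA and 25 times at YPEL5. As many or more occur in 15.6%, 3.48%, 11.3% and 32% of all 35116 promoters in the table, in the same order of genes. Over that window, which runs on past the annotated gene start, the RMND5A promoter is therefore rich in CG, though less so than that of its paralog. In the stretches shown, CG occurs 10 times in 132 bases at RMND5A and 34 times in 232 bases at RMND5B. These letters come from the reference genome and not from the SUP-M2 cells.

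RMND5A (ENSG00000153561, chromosome 2, 86720173 to 86778041, plus strand, GRCh38) had 0 counts in shGOLM1 replicate 1 and 1 count in replicate 2, against 475 and 518 counts in shscramble. The groups did not overlap, and both shGOLM1 libraries were at or next to the counting limit. The 0 of shGOLM1 replicate 1 allows a level of up to 0.0865 CPM (3 counts), a limit that covers counting error only. Over the pairs, 1 count stood against 993 counts, so the level in shscramble was 866 times that in shGOLM1. That ratio rests on 1 count and its size is therefore uncertain. As this loss is what chose the gene, it is described here with no test. Per gene length, the RMND5A transcript was at 2.12 and 2.27 FPKM (the authors' level scaled by gene length and depth) in the shscramble libraries. That was the lowest of the 10 transcripts but for GID4, and it does not measure the share of the protein in the complex. Of its 6728 distinct stretches of 75 bases, 187 (2.78%) also occur in AC125232.2, a noncoding transcript further along the chromosome that had 11 and 12 counts in shGOLM1, against 11 and 4 counts in shscramble.

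RMND5B (ENSG00000145916, chromosome 5, 178130996 to 178150565), the paralog that can take the place of RMND5A beside MAEA, reached 49.9 CPM in shGOLM1 replicate 1 and 12.1 CPM in replicate 2, against 49.6 and 53.5 CPM in shscramble. Replicate 1 lay within the range of the shscramble libraries and replicate 2 far below it, so the groups overlapped in CPM. The mean was 31 ± 26.8 CPM in shGOLM1 and 51.5 ± 2.8 CPM in shscramble (SD, n = 2 each). The log2 fold change was -0.73 (SE 0.72), and the adjusted p was 0.68 (quasi-likelihood test of edgeR, Benjamini-Hochberg adjustment over all genes), so no change of RMND5B passed, and the level was not above shscramble beyond the replicate spread in either library. With shGOLM1 replicate 2 alone against the shscramble pair, edgeR's log2 fold change was -2.14 with an adjusted p of 3.36e-09, and with replicate 1 alone it was -0.06 with an adjusted p of 0.71. Over all alternatives the adjusted p ran from 3.36e-09 to 1. Tests of a single library of this kind take its unseen spread to be that of the shscramble pair, and they set libraries, not conditions, against each other. In the exons, 414 bases (5.38%) of RMND5B overlap NHP2 on the opposite strand, and the sources used here do not give the strand setting of the counting. NHP2 had 1615 and 1127 counts in shGOLM1, against 2831 and 2360 in shscramble, and its part in the RMND5B values was not tested.

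**Figure D1:**
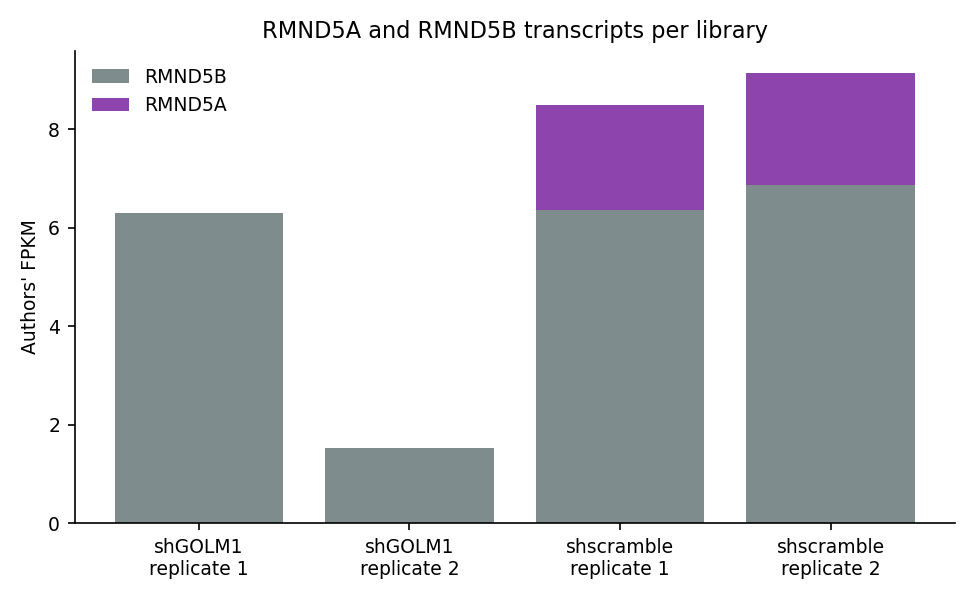
Stacked bars give the authors' FPKM of RMND5B (grey) and RMND5A (purple) in each of the 4 libraries, with the shGOLM1 libraries on the left. RMND5A has no visible share in shGOLM1, and the sum is 6.3 and 1.53 FPKM there, against 8.49 and 9.14 FPKM in shscramble.

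Added per gene length, RMND5A and RMND5B came to 6.3 FPKM in shGOLM1 replicate 1 and 1.53 FPKM in replicate 2, against 8.49 and 9.14 FPKM in shscramble. RMND5A made up 0% and 0.41% of that sum in shGOLM1 replicates 1 and 2, against 25% and 24.8% in shscramble. The bars of both paralogs show that the share of RMND5A was missing in both shGOLM1 libraries, whereas RMND5B was at 6.3 FPKM in replicate 1 and at 1.52 FPKM in replicate 2, against 6.37 and 6.88 FPKM in shscramble. These are single-library values on the authors' scale and carry no test.

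MAEA (ENSG00000090316, chromosome 4, 1289851 to 1340147), the other RING-type subunit and the partner of either RMND5 protein, was at 70.3 and 29 CPM in shGOLM1, against 102 and 101 CPM in shscramble. The groups did not overlap, and of the shGOLM1 libraries replicate 2 was the lower. The mean was 49.7 ± 29.2 CPM in shGOLM1 and 101 ± 1.29 CPM in shscramble (SD, n = 2 each), a log2 fold change of -1.03 (SE 0.50) that did not pass (edgeR adjusted p = 0.48). In single-library tests edgeR gave -0.55 for replicate 1 (adjusted p = 0.000636) and -1.85 for replicate 2 (adjusted p = 2.44e-09), in a range of adjusted p up to 1 over the alternatives. MAEA was thus below its shscramble level in either shGOLM1 library taken alone, by unequal amounts.

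**Figure D2:**
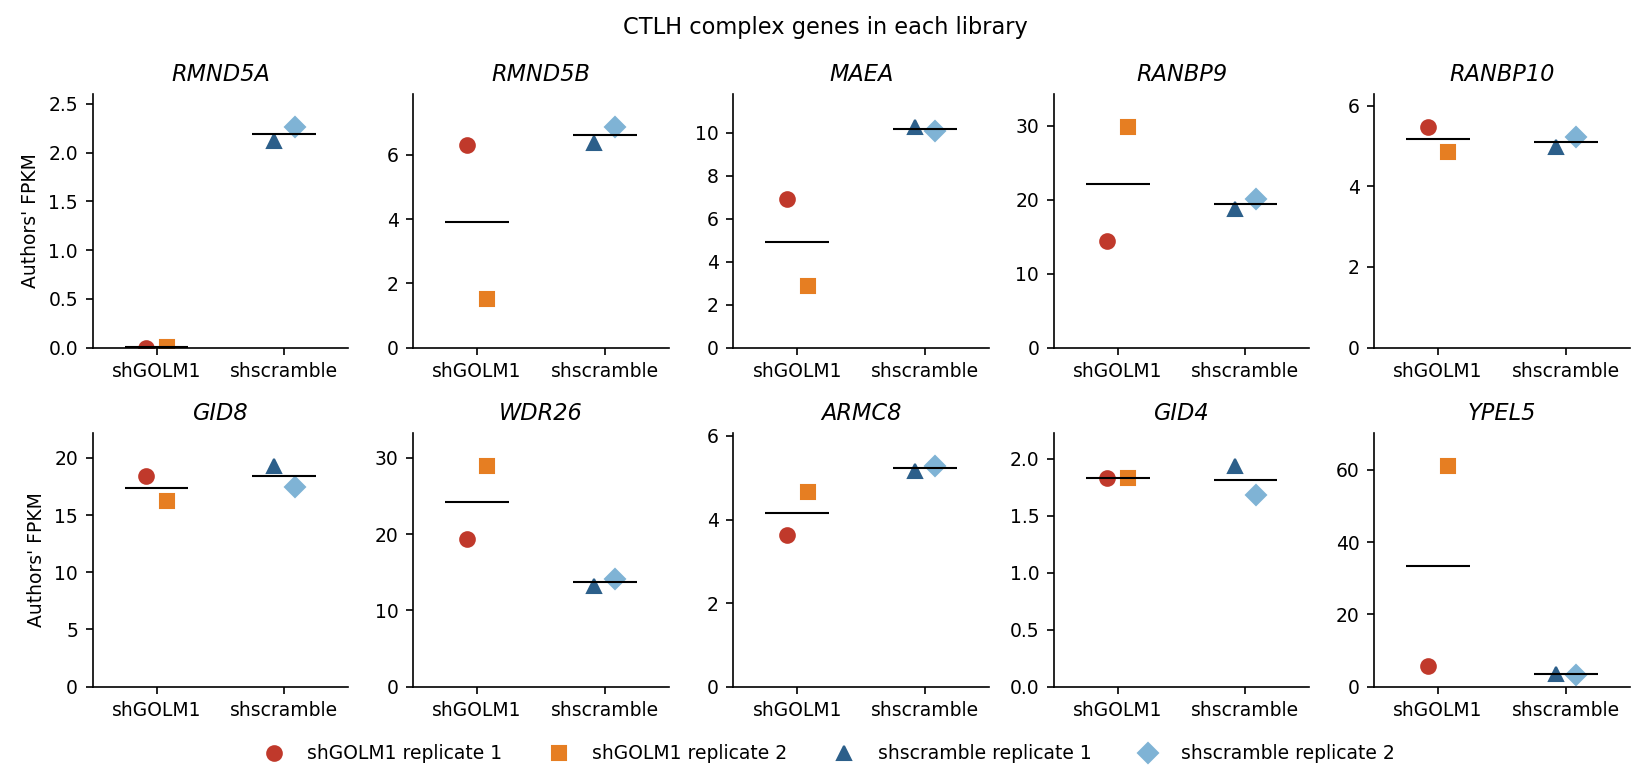
Each panel plots the authors' FPKM of a CTLH gene in every library, shGOLM1 left and shscramble right, with a line at each group's mean and the y axis from 0. RMND5A is at the floor in both shGOLM1 libraries, MAEA and ARMC8 lie below both shscramble libraries, WDR26 and YPEL5 lie above them, RMND5B in replicate 1 is just under them (6.3 against 6.37 and 6.88 FPKM), and the other genes overlap.

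No scaffold gene passed the test over all 4 libraries. RANBP9 (ENSG00000010017), which holds the catalytic and substrate-binding modules together, was at 49.5 and 103 CPM in shGOLM1, against 63.6 and 68 CPM in shscramble, so that the shGOLM1 libraries lay on opposite sides of the shscramble pair. Its log2 fold change was 0.21 (SE 0.44, edgeR adjusted p = 0.85), and the single-library tests were -0.43 for replicate 1 (edgeR adjusted p = 0.00709) and 0.60 for replicate 2 (edgeR adjusted p = 0.000185), in a range of adjusted p up to 1. In its exons, 347 bases (10.4%) overlap NOL7 on the opposite strand, which had 2203 and 1872 counts in shGOLM1, against 4779 and 4264 in shscramble. What that overlap adds to the RANBP9 counts was not tested.

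RANBP10, the paralog of RANBP9, was at 36.4 and 32.2 CPM in shGOLM1, against 32.4 and 34.2 CPM in shscramble. GID8, a small scaffold subunit that links the arms of the complex, was at 87.6 and 77.5 CPM in shGOLM1, against 90.2 and 81.7 CPM in shscramble. For both the groups overlapped, and their log2 fold changes of 0.04 (SE 0.29) and -0.06 (SE 0.28) did not pass in edgeR (adjusted p of 0.96 and 0.94), which does not show that they were equal. ARMC8, the armadillo-repeat subunit on which GID4 docks, was at 36.9 and 47.2 CPM in shGOLM1, against 51.5 and 52.7 CPM in shscramble. Its groups did not overlap, yet the log2 fold change of -0.31 (SE 0.30) was about the size of its error (edgeR adjusted p = 0.67). Replicate 1 alone was lower by edgeR (log2 fold change -0.51, adjusted p = 0.00203) and replicate 2 alone did not pass (log2 fold change -0.19, adjusted p = 0.17), in a range of adjusted p up to 1.

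GID4 (ENSG00000141034), the receptor that recognises proteins by their N-terminal residue, was at 9.81 and 9.84 CPM in shGOLM1, against 10.2 and 8.87 CPM in shscramble. Its shGOLM1 libraries lay between the shscramble libraries, and its log2 fold change was 0.04 (SE 0.37, edgeR adjusted p = 0.97). WDR26 (ENSG00000162923, chromosome 1, 224385143 to 224437033), a WD-repeat subunit that joins units of the complex into larger assemblies and can itself bring in substrates, was at 219 and 327 CPM in shGOLM1, against 147 and 157 CPM in shscramble. Both shGOLM1 libraries were above both shscramble libraries, again with replicate 2 further away. The log2 fold change was 0.85 (SE 0.34) and did not pass over all genes (edgeR adjusted p = 0.43), while the single-library tests gave 0.51 for replicate 1 (edgeR adjusted p = 0.000698) and 1.06 for replicate 2 (edgeR adjusted p = 1.95e-07), in a range of adjusted p up to 1.

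YPEL5 (ENSG00000119801, chromosome 2, 30146941 to 30160533), a small zinc-binding protein that docks on the WDR26 part of the complex and can block the entry of substrates, stood furthest above shscramble. It had 698 and 4902 counts in shGOLM1 replicates 1 and 2, against 409 and 375 counts in shscramble. In CPM these were 20.1 and 215 in shGOLM1, against 12.5 and 11.3 in shscramble, so that replicate 1 was 1.69 times and replicate 2 was 18.1 times the shscramble mean. The log2 fold change of 3.30 (SE 1.18) did not pass in edgeR (unadjusted p = 0.0438, adjusted p = 0.42). It passed in DESeq2 (3.34, SE 0.92, adjusted p = 0.0153) and in edgeR without the filter on low counts (adjusted p = 0.046), and in the authors' deposited table it has 3.28 (adjusted p of 0.00508). Over the alternatives the adjusted p ran from 2.05e-13 to 0.992. Replicate 1 alone gave a log2 fold change of 0.74 (edgeR adjusted p = 0.000859) and replicate 2 alone 4.13 (edgeR adjusted p = 2.05e-13), so the size rests on replicate 2, the library with the low mitochondrial and high ribosomal-protein share. The part of these shares in the YPEL5 value was not tested. None of the 75-base stretches of its transcripts (0 of 3843) occur in another gene of the annotation.

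**Figure D3:**
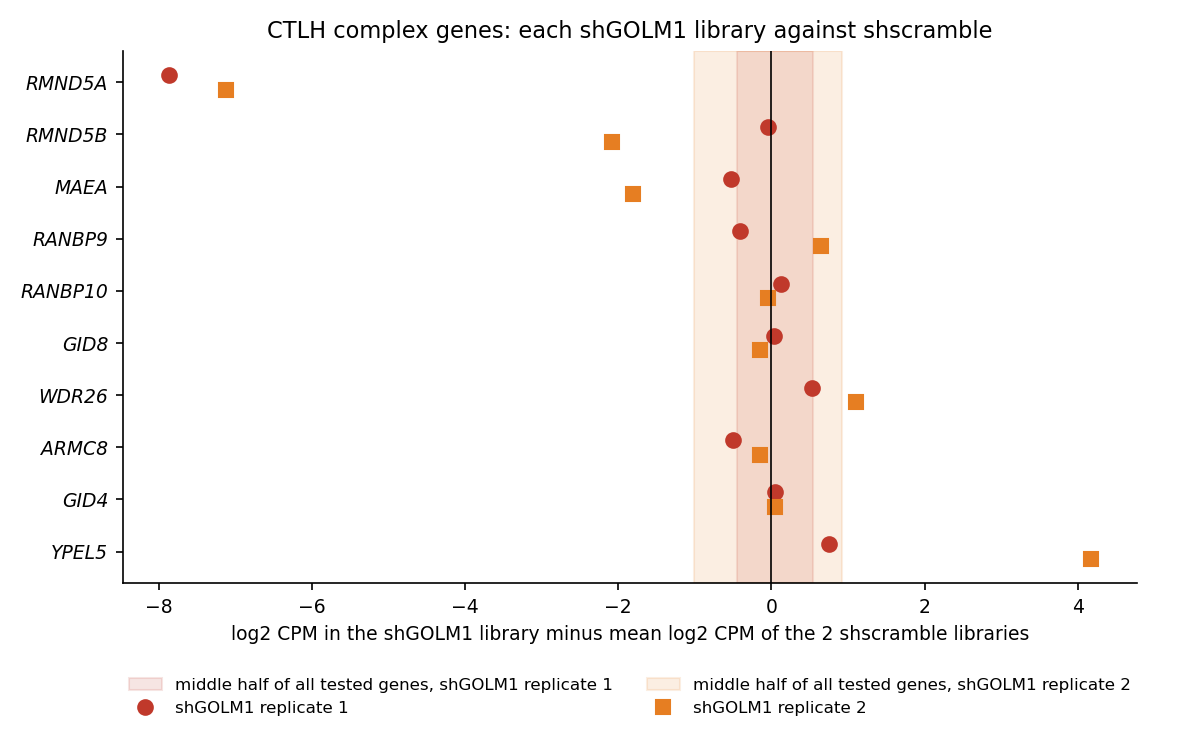
Points give log2 CPM of each shGOLM1 library minus the mean log2 CPM of the shscramble pair (x axis) for each CTLH gene (rows), and shaded bands give the interquartile range of all tested genes in the same library. YPEL5 reaches 4.17 and MAEA and RMND5B -1.80 and -2.09 in replicate 2, while in replicate 1 no member other than RMND5A is past 0.76 in either direction.

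Read as a set, the members lay on both sides of their shscramble levels. Among the 9 members other than RMND5A, edgeR called 0 higher and 0 lower, as over all genes (0% of 14166 tested), and at an unadjusted p under 0.05 it had 1 member, YPEL5, beside 11.8% of all genes. DESeq2 called 1 of the 9 higher, YPEL5, and 0 lower, where it called 3.42% of all genes higher, 0.339% lower and 3.76% in either direction. Without the filter on low counts, edgeR called YPEL5 higher and 0 members lower, beside 0.691% and 0.0672% of the genes then tested, or 0.759% in either direction. WDR26 and YPEL5 were higher and MAEA and ARMC8 lower without overlap, beside 25.2% of all tested genes higher, 26.5% lower and 51.7% in either direction, so counts of this kind are near the background. In shGOLM1 replicate 2, 2 of the 9 were at least 2-fold above the shscramble mean (WDR26 and YPEL5) and 2 at least 2-fold below it (RMND5B and MAEA), where 23.6% and 25.1% of all genes were. In replicate 1, 0 of the 9 were past 2-fold in either direction, where 13.7% of all genes were above and 5.81% below. The median log2 fold change of the 9 was 0.04, beside 0.05 for all tested genes. Their median difference from shscramble was 0.03 in replicate 1 and -0.05 in replicate 2, beside 0.00 and -0.04 for all tested genes.

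By edgeR in single libraries, replicate 1 had 2 members higher and 3 lower, where 20.4% and 24.1% of all genes passed in those directions and 44.5% in either. Replicate 2 had 3 higher and 2 lower, where 33.3% and 34.1% passed, 67.4% in either. MAEA passed as lower and WDR26 and YPEL5 as higher in both, RANBP9 passed in opposite directions, ARMC8 passed in replicate 1 and RMND5B in replicate 2. Whether ARMC8 and RMND5B differ between the shGOLM1 libraries was not tested, as each is a single library.

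The place of YPEL5 in the order of the members by level differed most between the libraries. On the authors' FPKM, RANBP9, GID8 and WDR26 were the top members in the shscramble libraries, at 18.8 and 20.1, 19.3 and 17.5, and 13.2 and 14.1 FPKM. In that order RANBP9 and GID8 did not differ beyond their spread, and neither did RANBP10 (4.97 and 5.23 FPKM) and ARMC8 (5.17 and 5.29 FPKM). MAEA followed at 10.3 and 10.1, RMND5B at 6.37 and 6.88, YPEL5 at 3.63 and 3.26 and GID4 at 1.94 and 1.68 FPKM in these libraries. In shGOLM1 replicate 2 YPEL5 was the highest of the 10, at 61.1 FPKM, whereas RMND5B (1.52 FPKM) and RMND5A (0.00627 FPKM) were the lowest. In replicate 1 YPEL5 was at 5.72 FPKM, WDR26 led at 19.4 FPKM, and the rest of the order was close to that of shscramble.

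Outside the 10, muskelin (MKLN1), another subunit, was at 51.9 and 35.8 CPM in shGOLM1, against 42.4 and 50.1 CPM in shscramble, with overlapping groups (log2 fold change -0.07, SE 0.34, edgeR adjusted p = 0.94). UBE2H, which passes ubiquitin to the complex, was at 83.7 and 220 CPM in shGOLM1, against 85 and 84.2 CPM in shscramble. Replicate 1 was just below the shscramble libraries and replicate 2 was 2.6 times their mean (log2 fold change 0.85, SE 0.53, edgeR adjusted p = 0.55). With replicate 2 alone, edgeR's log2 fold change was 1.33 for UBE2H and -0.42 for MKLN1. With replicate 1 alone it was -0.03 for UBE2H and 0.15 for MKLN1. In replicate 2, 23.6% of all tested genes were at least 2-fold above the shscramble mean, as UBE2H was.

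Of 7 proteins reported as substrates of the human complex, all tested, edgeR and DESeq2 each called 0 of the genes, and 0 were under an unadjusted p of 0.05 in edgeR, beside 0%, 3.76% and 11.8% of all genes, with a median log2 fold change of -0.28. Ubiquitin ligases act on proteins, so these transcript levels do not measure their degradation. DDX21, ARHGAP11A, ZMYND19 and HMGCS1, 4 of the 7, were lower without overlap and HBP1 was higher, beside the 26.5% and 25.2% of all genes. DDX21, a nucleolar RNA helicase, was at 264 and 87.6 CPM in shGOLM1, against 511 and 552 CPM in shscramble (log2 fold change -1.59, SE 0.61, edgeR adjusted p = 0.42). ARHGAP11A, a regulator of the GTPase RhoA, was at 112 and 86.1 CPM in shGOLM1, against 159 and 170 CPM in shscramble (log2 fold change -0.73, SE 0.30, edgeR adjusted p = 0.43). ZMYND19, a zinc finger protein, was at 20.6 and 22.8 CPM in shGOLM1, against 37.8 and 34.2 CPM in shscramble, with the shGOLM1 libraries close together (log2 fold change -0.73, SE 0.30, edgeR adjusted p = 0.43). HBP1, a transcriptional repressor of cell cycle genes, was at 11.7 and 96.4 CPM in shGOLM1, against 11.6 and 10.2 CPM in shscramble, just above the shscramble libraries in replicate 1 and 8.84 times the mean in replicate 2 (log2 fold change 2.31, SE 1.04, edgeR adjusted p = 0.46). NMNAT1, which makes NAD in the nucleus, was at 3.86 and 0.132 CPM in shGOLM1, against 2.21 and 2.01 CPM in shscramble, so that its shGOLM1 libraries lay on opposite sides. HMGCS1, an enzyme of cholesterol synthesis, and the helicase DDX50 had log2 fold changes of -0.28 (SE 0.31) and -0.08 (SE 0.39), which did not pass in edgeR (adjusted p of 0.71 and 0.95).

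Among 6 human counterparts of the enzymes that the yeast ligase destroys, FBP2 and PCK1 had 0 counts in every library and FBP1 was close to 0, so 3 were tested. Of these edgeR and DESeq2 each called 0, and 0 were under an unadjusted p of 0.05 in edgeR, beside the same 0%, 3.76% and 11.8% of all genes. PCK2, the mitochondrial enzyme that makes phosphoenolpyruvate, was at 54.8 and 67.4 CPM in shGOLM1, against 43.4 and 43.4 CPM in shscramble (log2 fold change 0.49, SE 0.29, edgeR adjusted p = 0.52). The malate dehydrogenases MDH1 and MDH2 overlapped between the groups, with log2 fold changes of -0.26 (SE 0.31) and -0.07 (SE 0.34).

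The paralogs of YPEL5 were far less abundant than it in counts. YPEL3 was at 2.11 and 12.3 CPM in shGOLM1, against 0.552 and 1.05 CPM in shscramble, both shGOLM1 libraries being above both shscramble libraries (log2 fold change 3.16, SE 1.06, edgeR adjusted p = 0.42). It passed in DESeq2 (adjusted p = 0.028, in a range from 2.78e-08 to 1 over the alternatives). YPEL1 was at 0.952 and 1.27 CPM in shGOLM1, against 0.306 and 0.601 CPM in shscramble, and YPEL2 at 0.375 and 3.65 CPM, against 0.184 and 0.481 CPM. YPEL4 had 0 counts in both shscramble libraries and in shGOLM1 replicate 1, and was at 0.879 CPM in replicate 2. Of the 3 paralogs tested, edgeR called 0 and DESeq2 called 1, YPEL3, which was also the 1 under an unadjusted p of 0.05 in edgeR, beside 3.42% of all genes called higher by DESeq2 and 11.8% under that p. In shGOLM1 replicate 1 all 3 were above the shscramble mean, as were 7111 of the 14166 tested genes. In replicate 2 all 3 were above it too, as were 6950 of the tested genes. YPEL1 had only 10 and 20 counts in shscramble, and YPEL2 had 6 and 16. Both passed the filter on low counts only with the shGOLM1 libraries, where they are higher, so their direction is not independent of the filter.

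**Figure D4:**
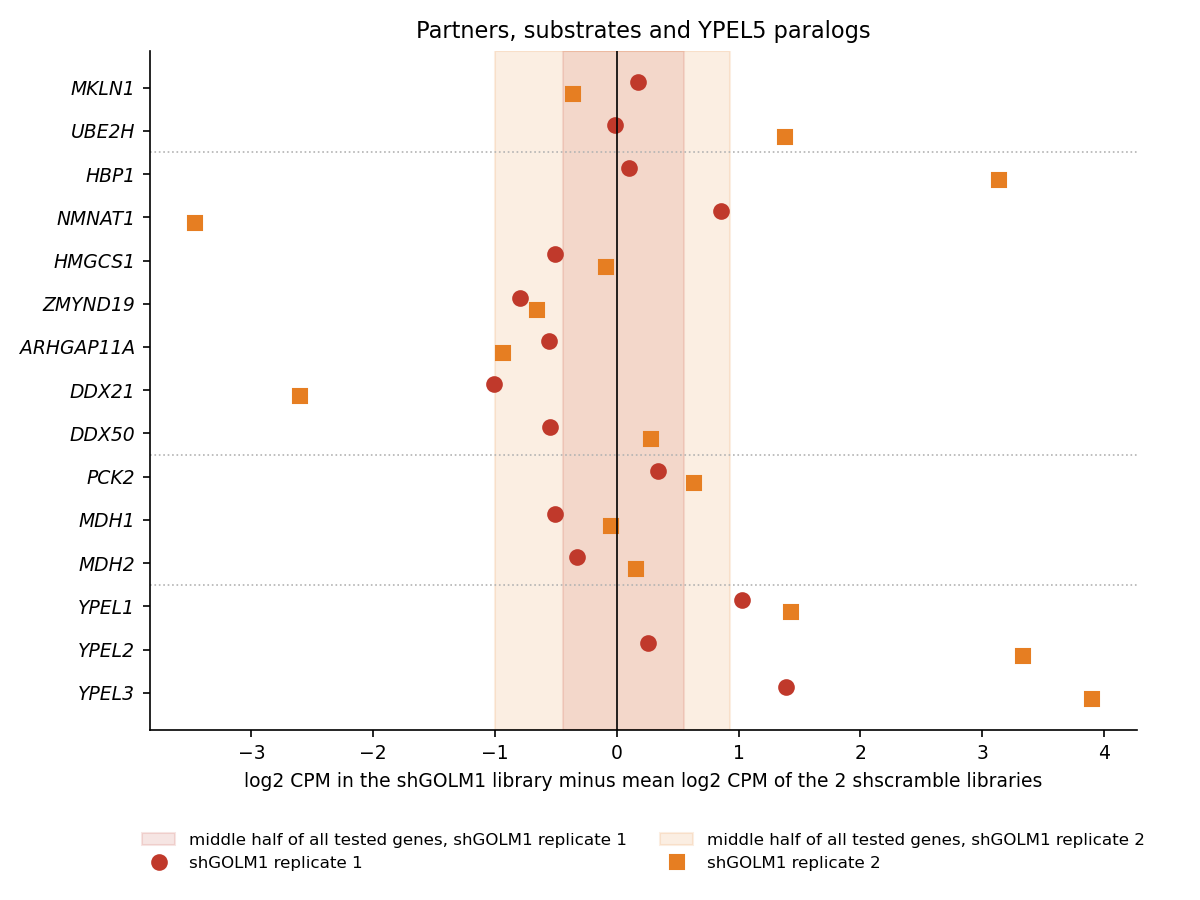
Points give log2 CPM of each shGOLM1 library minus the mean of the shscramble pair (x axis) for genes around the complex, with dotted lines between subunit and UBE2H, reported substrates, counterparts of yeast targets and YPEL5 paralogs. Bands are the interquartile range of all tested genes in the same library. In replicate 2 HBP1, UBE2H, YPEL1, YPEL2 and YPEL3 lie above the band and NMNAT1 and DDX21 below it. In replicate 1 NMNAT1, YPEL1 and YPEL3 lie above the band, and DDX21, ZMYND19, ARHGAP11A, DDX50, HMGCS1 and MDH1 below it.

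None of the 10 expressed coding genes nearest to RMND5A, 5 on either side, was near 0 in both shGOLM1 libraries. RNF103, the nearest expressed coding gene before it at 96.3 kb, encodes another ubiquitin ligase. It was at 17.9 and 14.7 CPM in shGOLM1, against 7.66 and 9.8 CPM in shscramble, higher without overlap (log2 fold change 0.90, SE 0.38, edgeR adjusted p = 0.44). CHMP3, a subunit of the membrane-remodelling ESCRT-III machinery at 157 kb, was at 32.1 and 11.2 CPM in shGOLM1, against 25.4 and 26.7 CPM in shscramble. On the other side CD8A, whose annotated end lies 6.57 kb from that of RMND5A, had 0 counts in every library, and CD8B had 7 and 5 counts in shGOLM1, against 3 and 0 counts in shscramble. Beyond them the next coding gene with at least 1 CPM was RGPD2 at 978 kb, at 1.9 and 7.34 CPM in shGOLM1, against 1.44 and 1.05 CPM in shscramble. RGPD2 belongs to a family of near-identical copies, so its reads are uncertain. RPIA, an enzyme of the pentose phosphate pathway 1914 kb away, was the lowest of the 10 relative to shscramble, at 23.7 and 10.9 CPM in shGOLM1, against 55.4 and 51.5 CPM in shscramble (log2 fold change -1.63, SE 0.48, edgeR adjusted p = 0.42). Of the 10 neighbours, 3 were higher and 2 lower without overlap, beside 25.2% and 26.5% of all genes. Of these edgeR and DESeq2 each called 0, and RPIA was the 1 under an unadjusted p of 0.05 in edgeR, near the 11.8% of all genes, with 3.76% called by DESeq2.

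**Figure D5:**
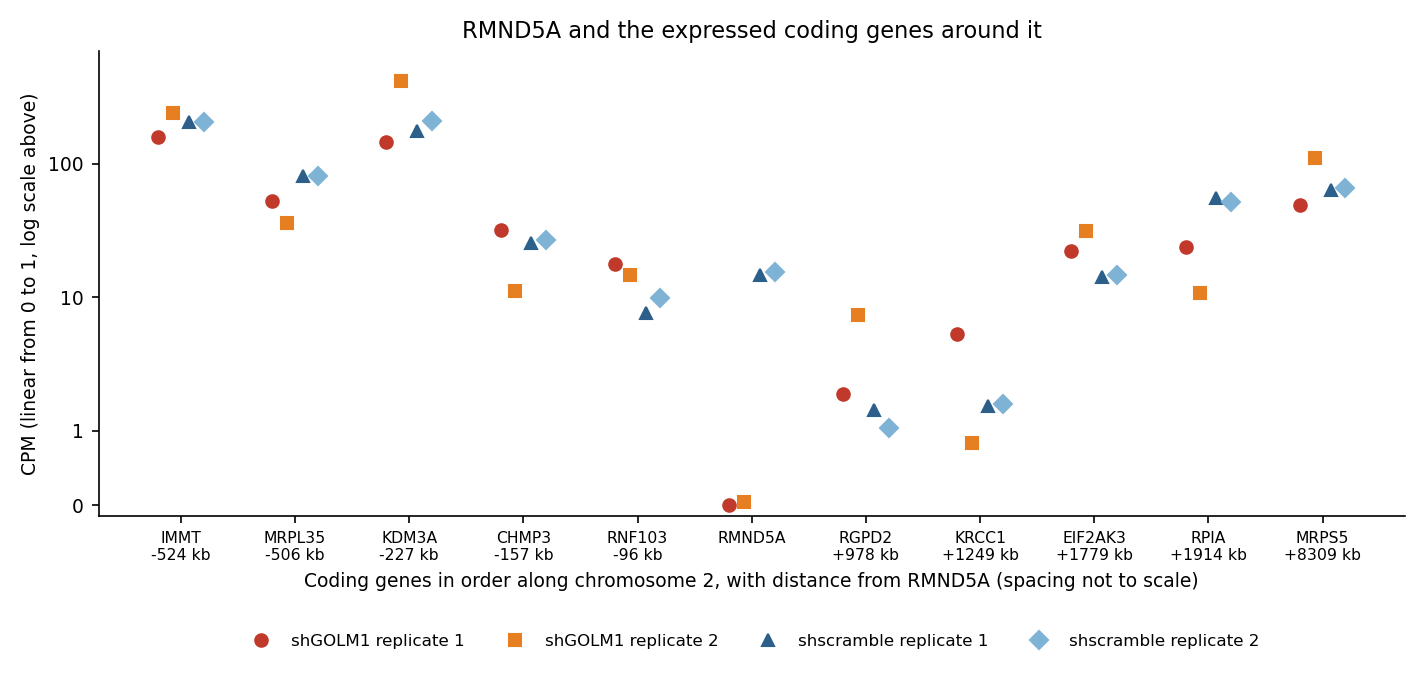
CPM (y axis, linear from 0 to 1 and logarithmic above) of RMND5A and the 5 nearest coding genes with at least 1 CPM on either side, in chromosome order with equal spacing and distances in kb under each name. RMND5A alone drops to the floor in shGOLM1, between RNF103 at 17.9 and 14.7 CPM and RGPD2 at 1.9 and 7.34 CPM.

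The plot of neighbouring genes covers genes with reads, and no coding gene with a mean of at least 1 CPM lies within the 978 kb after RMND5A, so that side is described by few reads only. The RNF103-CHMP3 readthrough gene, which overlaps the start of RMND5A on the opposite strand, had 0 counts in both shGOLM1 libraries, against 5 and 1 counts in shscramble.

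A few other coding genes shared the pattern of RMND5A over the 4 libraries, by Euclidean distance in log2 CPM with a prior count of 2. The nearest 5 were RTL6, RIC8B, GLB1L2, MAP9 and TCEAL3, at distances from 0.784 to 3.23. RTL6 had 0 counts in both shGOLM1 libraries, against 455 and 440 counts in shscramble, and lies on chromosome 22. RIC8B on chromosome 12 had 0 in both, against 211 and 225 counts, and GLB1L2 on chromosome 11 had 0 in both, against 198 and 171 counts. MAP9 on chromosome 4 had 5 and 0 counts in shGOLM1, against 188 and 168 counts in shscramble, and TCEAL3 on chromosome X had 0 in both, against 90 and 122 counts. The 5 therefore lie on 5 chromosomes other than that of RMND5A, and a likeness over 4 libraries is a description only.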

How the data were processed

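RNA-seq of SUP-M2 cells was available as a single table. Per the labels' protocols, libraries were made from column-purified total RNA with a SMARTER kit. The sources used here do not give the aligner, counter or strand setting. Of builds, GRCm38 and mm10, both of mouse, are named in the submitters' processing notes, but all 58735 gene identifiers carry the GRCh38 coordinates of GENCODE 29.

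The deposited counts are whole reads per gene and library, not normalized. FPKM was deposited beside them and was used only to compare levels between genes. The authors also deposited a mean signal per group, counts scaled by size factors, which was not used. The same table holds a log2 fold change deposited by the authors. It also holds a deposited p-value with its adjusted form, with no tool named, and both are credited where printed.

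Samples were grouped by title. Counts were tested with edgeR 4.0.16 (limma 3.58.1, R 4.3.3): TMM factors of 1.12 and 0.828 in shGOLM1 and 1.02 and 1.05 in shscramble, filterByExpr, the quasi-likelihood test, no covariate, two-sided, Benjamini-Hochberg adjustment over 14166 genes, threshold 0.05. SE is the log2 fold change divided by the root of the F statistic. CPM uses TMM-scaled totals, and log2 CPM a prior count of 2. Alternatives were 2 other scalings, 2 other filters, DESeq2 1.42.0, limma-voom, the replicate number as a block, and each library left out. The scripts were tested on simulated data.

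Members and gene lists were chosen with earlier results of these data known. Named were the 10 members, the listed partners, substrates, yeast counterparts and YPEL5 paralogs, the 5 nearest coding genes on either side of RMND5A with a mean of at least 1 CPM, and the 5 coding genes most like RMND5A. Stretches of 75 bases and exon overlaps were read from GENCODE 29 (a length set here, as no read length is known), promoters from RefSeq. Figures used matplotlib 3.10.9.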

Additional observations from a re-analysis of the deposited data

How the results depend on the processing

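Depth limits RMND5A to a bound, and 2 libraries a group limit every test. Of 34 gene results with a test, 34 kept their direction and stayed short of the threshold with RLE size factors, with limma-voom and with the replicate block. All-gene counts were 0 higher and 0 lower in the main setting of edgeR on all 4 libraries. They were 485 and 48 in DESeq2, 175 and 17 with no filter on low counts, and 169 and 34 with the replicate number as a block. Same-numbered libraries deviated from their group means with a correlation of -0.0977. With 2 libraries a group, this value cannot tell whether same-numbered libraries share a batch. Leaving out a library gave 16 to 5078 genes higher and 4 to 5212 lower, with the large counts when a shGOLM1 library was left out. Members called, other than RMND5A, numbered 1 in DESeq2 and 1 with no filter (YPEL5 in both), 0 with the block, and 0 to 5 when a library was left out. The log2 fold change of RMND5B ran from -2.14 to -0.062 over left-out libraries, and it passed only without shGOLM1 replicate 1.

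Some directions turned. With library totals alone the log2 fold change was -0.031 for RANBP10, -0.044 for GID4 and 0.029 for NMNAT1. With no filter it was -0.031 for RANBP10 and -0.034 for GID4. With at least 5 CPM in 2 libraries it was 0.058 for GID8, 0.042 for MKLN1, 0.042 for DDX50, 0.051 for MDH2 and 0.067 for IMMT. Among those that turned over left-out libraries, KRCC1, UBE2H and KDM3A had log2 fold changes of 0.99, 0.85 and 0.54 with all 4 libraries. Over left-out libraries RANBP9 ran from -0.43 to 0.60, RANBP10 from -0.095 to 0.11, GID8 from -0.20 to 0.011 and GID4 from -0.10 to 0.10. MKLN1 ran from -0.42 to 0.15, UBE2H from -0.032 to 1.33, NMNAT1 from -4.01 to 0.85, DDX50 from -0.57 to 0.23 and MDH2 from -0.34 to 0.10. IMMT ran from -0.40 to 0.17, KDM3A from -0.43 to 1.06, CHMP3 from -1.27 to 0.28, KRCC1 from -0.95 to 1.75 and MRPS5 from -0.40 to 0.73. The cause was not tested. The fitted log2 fold change of RMND5A ran from -11.99 to -8.34 over left-out libraries and depends on the prior count.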
